A study of Mus musculus with 15 samples.

Results

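The Myc, Max and Mxd network was followed in mouse epiblast-like cells (EpiLCs) while ERK signalling was switched on and then blocked. Its members were the 10 genes listed for the network by symbol (Myc, Mycn, Mycl, Max, Mxd1, Mxd3, Mxd4, Mxi1, Mnt and Mga), found through their Ensembl identifiers among the 52636 genes of the count table. All 10 were present and all 10 passed the filter on low counts. The rule is a list of names and uses no measured value, but the list was drawn up with earlier results of these data known. Of these, 3 code for transcriptional activators (Myc, Mycn, Mycl), 1 for the shared partner (Max) and 6 for antagonists (Mxd1, Mxd3, Mxd4, Mxi1, Mnt, Mga).

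MYC, MYCN and MYCL bind DNA only as pairs with MAX, at the E-box sequence, and recruit histone acetyltransferases and elongation factors that raise transcription. MXD proteins, MXI1 and MNT pair with the same MAX and bring the SIN3 corepressor with its histone deacetylases to the same sites, so the relative amounts of activators and antagonists set the balance at shared targets. MGA also pairs with MAX, within a variant Polycomb complex that keeps germline genes silent in pluripotent cells. Myc is a classical early response gene of growth factor and ERK signalling, and Myc and Mycn together support growth and self-renewal of pluripotent stem cells.

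The cells were of the line CRAFR26, which carries a c-RAF kinase construct that 4-hydroxytamoxifen (4OHT) activates. Embryonic stem cells were taken through 2 passages towards a state the labels call RSC and then kept for 48 h in EpiLC medium with bFGF (12 ng/ml), Activin A (20 ng/ml) and XAV939 (1 µM). Every group, the 0h controls included, had the FGF receptor inhibitor PD17 (PD173074, 250 nM) for 2 h, given before any 4OHT. The groups were 0h without 4OHT (n = 3), 2h and 4h of 250 nM 4OHT (n = 4 each) and rev, in which 4 h of 4OHT were followed by 2 h with a MEK inhibitor (n = 4). The line was used as 2 clones, clone 4 and clone 8, with 2 samples of each per group except for 0h, which held 1 sample of clone 4 and 2 of clone 8 after the submitters discarded 1. The rev cells were also 2 h older than the 4h cells, so time and MEK inhibition cannot be told apart. The 0h group was the only one without 4OHT, with no such control for the 2h and 4h times. The labels do not say whether the 2 samples of a clone were separate cultures, so the p-values measure the spread between these samples, which may be technical.

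Expression is given as CPM, the count of a gene divided by the library size after TMM scaling, and levels of different genes are compared only as CPM per kb of exon. Fold changes are on the log2 scale, each with its standard error (SE) from the fit, and a comparison such as 4h over 0h has the later state first. Every adjusted p is from edgeR's quasi-likelihood F test, two-sided, with Benjamini-Hochberg adjustment over 13451 genes, and a gene was called, or said to have risen or fallen, when it was under 0.05. A fit to a step that uses clone 4 at 0h rests on 1 sample there, which is assumed to vary like the others.

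The 4h libraries stood apart in depth and in the sums of some marker genes. Their total counts were 1552022 to 6658950, against 8667880 to 13004556 in the other 11 libraries. Spry4, Dusp6 and Egr1, standard outputs of ERK signalling, all rose in 2h over 0h and in 4h over 0h and fell in 4h over 2h (−0.42, −1.49 and −2.54). Spry4 (−2.26) and Dusp6 (−1.44) fell in rev over 4h, while Egr1 (−0.53, adjusted p = 0.437) was not called. In rev over 0h all 3 were still higher, by 3.84, 2.45 and 4.79, so their RNA had not returned to its starting level. Core pluripotency markers (Pou5f1, Sox2, Utf1, Sall4) summed to 351 to 570 CPM in the 15 libraries and formative markers, 8 genes including Fgf5, Otx2 and Dnmt3b, to 787 to 1590 CPM, while primitive endoderm markers summed to 2.26 to 5.16 CPM with Sox7, Sox17 and Gata6 at 0 in some libraries. Fibroblast markers summed to 0.377 to 15.7 CPM, with Postn at 0 in all libraries, and mesendoderm markers to 3.01 to 13.5 CPM. At 4h the formative sum was lower (787 to 900 CPM, against 1120 to 1590 CPM elsewhere), but its members went both ways in 4h over 0h, with 5 of 8 lower (among them Dnmt3b, from a mean of 935 to 416 CPM) and 3 higher, among them Otx2 (12.3 to 25.1 CPM) and Lef1 (30.3 to 67.3 CPM). At 4h the sums of 9 naive markers (81.9 to 305 CPM, against 35.1 to 52.4) and of 4 neural markers (45.8 to 65.6 CPM, against 15.9 to 26.0) were higher. In 4h over 0h 8 of the 9 naive markers were called higher and 0 lower. Of the neural markers 3 were tested, with 2 higher and 1 lower. The part of these differences in the 4h results below was not tested. In bulk RNA, fewer cells of a type and less RNA per cell cannot be told apart.

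The promoters of the members were searched for the E-box to which the network itself binds, and the 3 that hold it are shown because they belong to the shared partner and to 2 of the antagonists. RefSeq promoters (GRCm38.p6, 250 bases before to 50 after each start) were at hand for 9 of the 10 genes, in 11 promoters; Myc had no entry. The palindrome CACGTG, read on both strands, was in the promoters of Mxd4, Mnt and Max, thus in 3 of 11 promoters, and in 7.15% of all 32851 promoters of the same length. It is in capitals in the stretches below, each written 5′ to 3′ on the strand of its gene. The distance given is that of its first base, so the E-box of Max reaches across the start.
Mxd4, chr5:34187887-34187960, minus strand, E-box 219 bases before the start: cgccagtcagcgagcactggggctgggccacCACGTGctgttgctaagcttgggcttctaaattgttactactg
Mnt, chr11:74830764-74830843, plus strand, E-box 123 bases before the start: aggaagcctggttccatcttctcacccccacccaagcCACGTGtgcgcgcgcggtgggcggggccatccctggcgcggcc
Max, chr12:76962244-76962323, minus strand, E-box 3 bases before the start: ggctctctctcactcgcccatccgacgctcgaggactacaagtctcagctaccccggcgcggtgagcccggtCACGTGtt
The AP-1 sequence TGANTCA was in 0 of the 11 promoters and in 7.81% of all promoters. The ETS core CCGGAA was in 0 of the 11 and in 14.9% of all. These matches describe the letters of the windows and not binding. Of the 3 genes with an E-box, Max and Mxd4 were higher in 4h over 0h, while Mnt was not called in any of the 5 group comparisons, as described below. Under scaling by total count neither Max (0.11) nor Mxd4 (−0.15) was called in 4h over 0h, and Mnt was called as lower (−0.85, adjusted p = 0.0110).

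Before 4OHT the family was carried by Mycn and Myc was low. Per length, the order of the mean levels at 0h (n = 3, SD) was Mycn 13.3 ± 0.295 CPM per kb, Mga 9.80 ± 0.692, Mnt 7.47 ± 1.32, Max 5.84 ± 0.366, Mycl 3.39 ± 0.340, Mxd3 1.51 ± 0.301, Mxi1 1.18 ± 0.322, Myc 0.897 ± 0.283, Mxd4 0.511 ± 0.101 and Mxd1 0.481 ± 0.0769 CPM per kb. Neighbours whose mean ± SD ranges overlapped were Mnt and Max, Mxd3 and Mxi1, Mxi1 and Myc, and Mxd4 and Mxd1.

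Myc (ENSMUSG00000022346, mm10 chr15:61985391-61990374) codes for c-MYC, the family member best known for rapid induction by mitogens. At 0h its level was 1.62 CPM in clone 4 and 2.54 and 3.15 CPM in clone 8. At 2h it was 60.5 and 55.7 CPM in clone 4 and 33.1 and 32.7 CPM in clone 8. All 4 of the 2h libraries lay above all 0h libraries, and both clone 4 libraries lay above both clone 8 libraries. At 4h it was 91.0 and 98.2 CPM in clone 4 but 12.5 and 18.8 CPM in clone 8. In rev it was 20.3 and 24.0 CPM in clone 4 and 15.9 and 13.3 CPM in clone 8. Every library with 4OHT thus held more Myc RNA than every 0h library, and the clones were farthest apart at 4h.

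Myc rose by 3.93 on the log2 scale in 2h over 0h (SE 0.60, adjusted p = 0.00345), a 15.2-fold change, and by 3.96 in 4h over 0h (SE 0.62, adjusted p = 0.000598). It was called in both comparisons without any single library in turn. For 4h over 2h the model with 1 slope for both clones gave 0.03 (SE 0.46, adjusted p = 0.965), a mean of unlike courses in the clones. In rev over 4h the same model gave −1.31 (SE 0.48, adjusted p = 0.0612), which was not called; without the 4h library clone8_1 it was −1.68 (adjusted p = 0.0132) and without clone8_2 it was −1.56 (adjusted p = 0.0483). DESeq2 called it, with an adjusted p of 0.0223. Myc was still above the start after MEK inhibition, by 2.65 in rev over 0h (SE 0.58, adjusted p = 0.0157); without the only clone 4 library at 0h the value was 2.04 and the adjusted p 0.0702.

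Mycn (ENSMUSG00000037169, mm10 chr12:12936093-12941914, minus strand) codes for N-MYC, the member most used by embryonic and neural progenitors. Its level at 0h was nearly the same in the 3 libraries, 43.6 CPM in clone 4 and 43.2 and 45.1 CPM in clone 8. At 2h it was 34.4 and 32.1 CPM in clone 4 and 74.7 and 81.2 CPM in clone 8, so that the clone 4 libraries lay below the 0h range and those of clone 8 above it. At 4h it was 51.9 and 49.4 CPM in clone 4 and 102 and 110 CPM in clone 8. In rev it was 26.0 and 23.6 CPM in clone 4 and 49.2 and 45.2 CPM in clone 8. Clone 8 held more than clone 4 in each group with 4OHT, with no overlap.

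Over both clones Mycn rose in 4h over 0h by 0.83 (SE 0.17, adjusted p = 0.000870) and fell by 1.10 in rev over 4h (SE 0.16, adjusted p = 3.67e-05), and both calls stood without any single library. In a fit without the clone term they were lost, at an adjusted p of 0.147 and 0.0529. With libraries scaled by their total count the rise was 0.08 (adjusted p = 0.811) and the fall −0.71 (adjusted p = 0.0351). The rise also averages the clones, whose means went from 43.6 to 50.6 CPM in clone 4 and from 44.2 to 106 CPM in clone 8. Mycn was higher in 4h over 2h by 0.51 (SE 0.16, adjusted p = 0.0136), a call lost without 1 of 3 libraries (2h clone4_1, 0.44, adjusted p = 0.0664; 2h clone4_2, 0.41, adjusted p = 0.0714; 4h clone8_2, 0.45, adjusted p = 0.0539) and turned to −0.05 when libraries were scaled by their total count. The 2h over 0h value of 0.31 (adjusted p = 0.299) was not called; without the clone 4 library at 0h it was 0.75 (adjusted p = 0.000929).

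Mycl (ENSMUSG00000028654, mm10 chr4:122995652-123002485), which codes for L-MYC, had its highest mean level at the start. It stood at 15 CPM in clone 4 and 13.9 and 12.2 CPM in clone 8 at 0h. At 2h it was 6.36 and 4.78 CPM in clone 4 and 6.54 and 8.84 CPM in clone 8, all below the 0h libraries. At 4h and in rev the clones parted, with 5.50 and 2.72 CPM and 3.92 and 5.47 CPM in clone 4, and 11.6 and 10.6 CPM and 14.1 and 12.6 CPM in clone 8. Mycl fell by 0.92 in 4h over 0h (SE 0.32, adjusted p = 0.0329); this call was lost without the clone 4 library at 0h (−0.39, adjusted p = 0.314), the 4h library clone4_1 (−0.93, adjusted p = 0.0596) or clone4_2 (−0.69, adjusted p = 0.0910). The 2h over 0h value was −1.01 (SE 0.30, adjusted p = 0.0574), and it was called without the 0h library clone8_2 (−1.24, adjusted p = 0.0283) or the 2h library clone4_1 (−1.17, adjusted p = 0.0466).

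**Figure D1:**
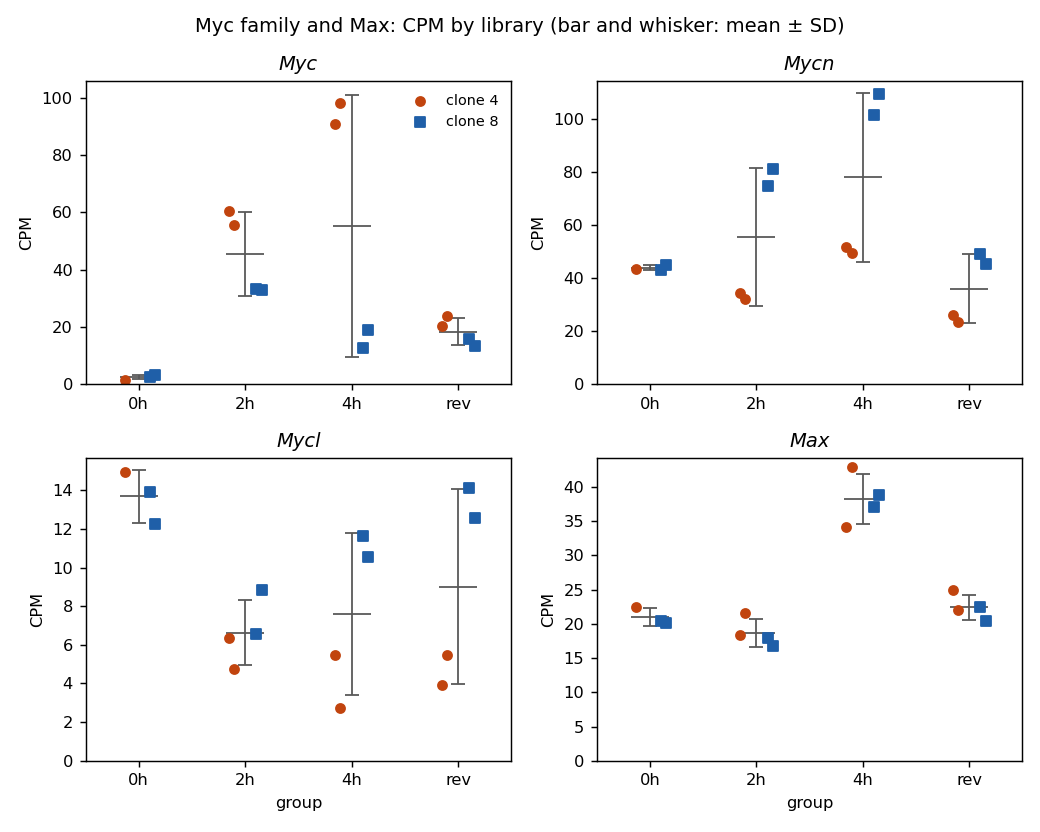
CPM of Myc, Mycn, Mycl and Max in each of the 15 libraries (vertical axes, from 0) by group (horizontal axes), with circles for clone 4, squares for clone 8 and grey bars for the mean ± SD of a group (n = 3 at 0h, 4 elsewhere). Myc at 4h splits into 91.0 and 98.2 CPM in clone 4 and 12.5 and 18.8 CPM in clone 8, Mycn shows the reverse order of the clones, and Max is higher at 4h in both.

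Max (ENSMUSG00000059436, mm10 chr12:76937269-76962201, minus strand), the partner that all these proteins need, rose late and in both clones. Its level was 22.5, 20.4 and 20.1 CPM at 0h and 18.4, 21.6, 18.0 and 16.8 CPM at 2h (in the order clone 4, then clone 8). It was 34.2, 43.0, 37.1 and 38.8 CPM at 4h and 24.9, 22.0, 22.4 and 20.4 CPM in rev. The 4h libraries all lay above every other library. Max rose by 0.85 in 4h over 0h (SE 0.12, adjusted p = 8.00e-06) and by 1.04 in 4h over 2h (SE 0.11, adjusted p = 1.69e-07), and it fell by 0.78 in rev over 4h (SE 0.11, adjusted p = 1.06e-05). In rev over 0h the value was 0.07 (SE 0.11, adjusted p = 0.723). All 3 calls stood without any single library, but under scaling by total count the values were 0.11, 0.50 and −0.36, none of them called.

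The scaling matters for every 4h value. With libraries scaled by their total count the median gene moved by −0.725 in 4h over 0h, −0.571 in 4h over 2h and 0.446 in rev over 4h (and by −0.181 in 2h over 0h and −0.302 in rev over 0h), whereas TMM holds it near 0. Among called genes the share that was higher went from 52% to 7.11% in 4h over 0h, from 50.6% to 9.1% in 4h over 2h, from 49.2% to 88% in rev over 4h and from 58.2% to 31.7% in rev over 0h. The changes reported here are relative to the bulk of the genes. Under total count scaling the called members were Myc (higher) and Mycl (lower) in 2h over 0h and in rev over 0h, and Myc (higher), Mycl, Mxd3 and Mnt (lower) in 4h over 0h. They were Mxd1 and Mnt (lower) in 4h over 2h and Myc and Mycn (lower) in rev over 4h. Relative to that median, Max was 0.83 higher in 4h over 0h under total count scaling, Mga 0.48, Mxi1 0.44, Mxd4 0.58 and Mycn 0.81.

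Among the antagonists, Mxd1 (ENSMUSG00000001156, mm10 chr6:86647042-86669161, minus strand), which rises when many cell types differentiate, was the only one called in 2h over 0h over both clones. It was at 2.81, 3.88 and 3.51 CPM at 0h and at 4.77, 5.66, 6.72 and 6.64 CPM at 2h, with no overlap between these groups. At 4h it was 2.44, 3.46, 5.46 and 3.77 CPM and in rev 3.57, 2.89, 6.20 and 4.05 CPM, both overlapping the 0h range. Mxd1 rose by 0.88 in 2h over 0h (SE 0.20, adjusted p = 0.00964) and fell by 0.62 in 4h over 2h (SE 0.21, adjusted p = 0.0220). Without the clone 4 library at 0h the first was 0.93 (adjusted p = 0.0547), and without the 4h library clone8_2 the second was −0.54 (adjusted p = 0.0663). Under scaling by total count they were 0.69 (adjusted p = 0.426) and −1.23 (adjusted p = 0.00327). Without the clone term they were 0.82 (adjusted p = 0.0904) and −0.60 (adjusted p = 0.0886). Within single clones the 2h over 0h value was 0.89 in clone 4 and 0.85 in clone 8, and neither was called.

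Mxi1 (ENSMUSG00000025025, mm10 chr19:53310518-53375810), which codes for the Mxd family protein also called MXD2, rose from 2h to 4h. Its level was 5.61, 9.89 and 8.60 CPM at 0h, 4.99, 5.84, 5.58 and 4.77 CPM at 2h, 9.16, 10.9, 11.8 and 11.3 CPM at 4h and 6.66, 5.89, 6.91 and 6.02 CPM in rev. All 4h libraries lay above all 2h and rev libraries, but the 4h and 0h groups overlapped. Mxi1 rose by 1.03 in 4h over 2h (SE 0.17, adjusted p = 7.70e-05) and fell by 0.76 in rev over 4h (SE 0.17, adjusted p = 0.00190), and both calls stood without any single library. Under scaling by total count they were lost, at 0.47 (adjusted p = 0.217) and −0.32 (adjusted p = 0.471). Its 4h over 0h value of 0.48 (SE 0.19, adjusted p = 0.0442) was called in only 2 of 7 fits that leave out a library, was 0.25 (adjusted p = 0.371) without the clone 4 library at 0h, and turned to −0.28 under scaling by total count. Without that same library the 2h over 0h value went from −0.55 (adjusted p = 0.0666) to −0.78 (adjusted p = 0.0308). DESeq2 called this early fall with all libraries (−0.57, adjusted p = 0.0382).

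Mga (ENSMUSG00000033943, mm10 chr2:119897228-119969581) had the most reads of the network, with 143, 146 and 162 CPM at 0h and 122, 158, 152 and 125 CPM at 2h. It was at 164, 195, 234 and 236 CPM at 4h and at 151, 170, 135 and 145 CPM in rev. The 2 clone 8 libraries at 4h were above all others, while 1 of those of clone 4 lay within the range of rev. Mga was higher by 0.47 in 4h over 0h (SE 0.12, adjusted p = 0.00372) and by 0.57 in 4h over 2h (SE 0.11, adjusted p = 0.000359). It was lower by 0.46 in rev over 4h (log2 −0.46, SE 0.11, adjusted p = 0.00323). Under scaling by total count these values were −0.24, 0.04 and −0.05, none of them called.

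Mnt (ENSMUSG00000000282, mm10 chr11:74830920-74845725), the widely expressed antagonist, was not called in any of the 5 group comparisons. Its level ranged from 28.1 to 40.3 CPM at 0h, 28.5 to 43.1 CPM at 2h, 26.6 to 38.5 CPM at 4h and 37.5 to 40.1 CPM in rev, and the groups overlapped. The largest of its 5 values was 0.29 in rev over 4h (SE 0.14, adjusted p = 0.116). Without the clone 4 library at 0h the 4h over 0h value went from −0.17 (adjusted p = 0.372) to −0.44 (adjusted p = 0.0179). Under scaling by total count Mnt was called as lower in 4h over 0h (−0.85, adjusted p = 0.0110) and in 4h over 2h (−0.64, adjusted p = 0.0450).

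Mxd4 (ENSMUSG00000037235, mm10 chr5:34173883-34187720, minus strand) and Mxd3 (ENSMUSG00000021485, mm10 chr13:55325168-55329823, minus strand), the latter known from dividing cells, were low. Mxd4 was at 3.35, 4.81 and 4.85 CPM at 0h, 3.29, 2.92, 6.98 and 6.53 CPM at 2h, 7.33, 4.20, 7.74 and 5.65 CPM at 4h and 3.99, 4.23, 8.32 and 8.82 CPM in rev. Clone 8 was above clone 4 in each group except at 4h, where the clones overlapped. Its 4h over 0h value of 0.61 (SE 0.23, adjusted p = 0.0358) was called in 2 of 7 fits that leave out a library, was −0.15 under scaling by total count and −0.08 with libraries thinned to the depth of the smallest. Mxd3 lay between 2.48 and 4.16 CPM in the 11 libraries outside 4h, and at 4h it was 0.611 and 2.22 CPM in clone 4 and 5.01 and 4.52 CPM in clone 8. The lowest of these, 0.611 CPM, is below the 1.83 CPM that 3 counts are worth in the smallest library. Mxd3 was not called in any of the 5 group comparisons, with values from −0.32 to 0.18.

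Reads of 3 antagonists could be shared with a gene on the opposite strand, since the handling of strand is not given in the sources used here. Exons of Mxd3 share 105 bases with Prelid1, those of Mxd4 share 514 bases with Gm42846 and those of Mxi1 share 194 bases with Gm10197.

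**Figure D2:**
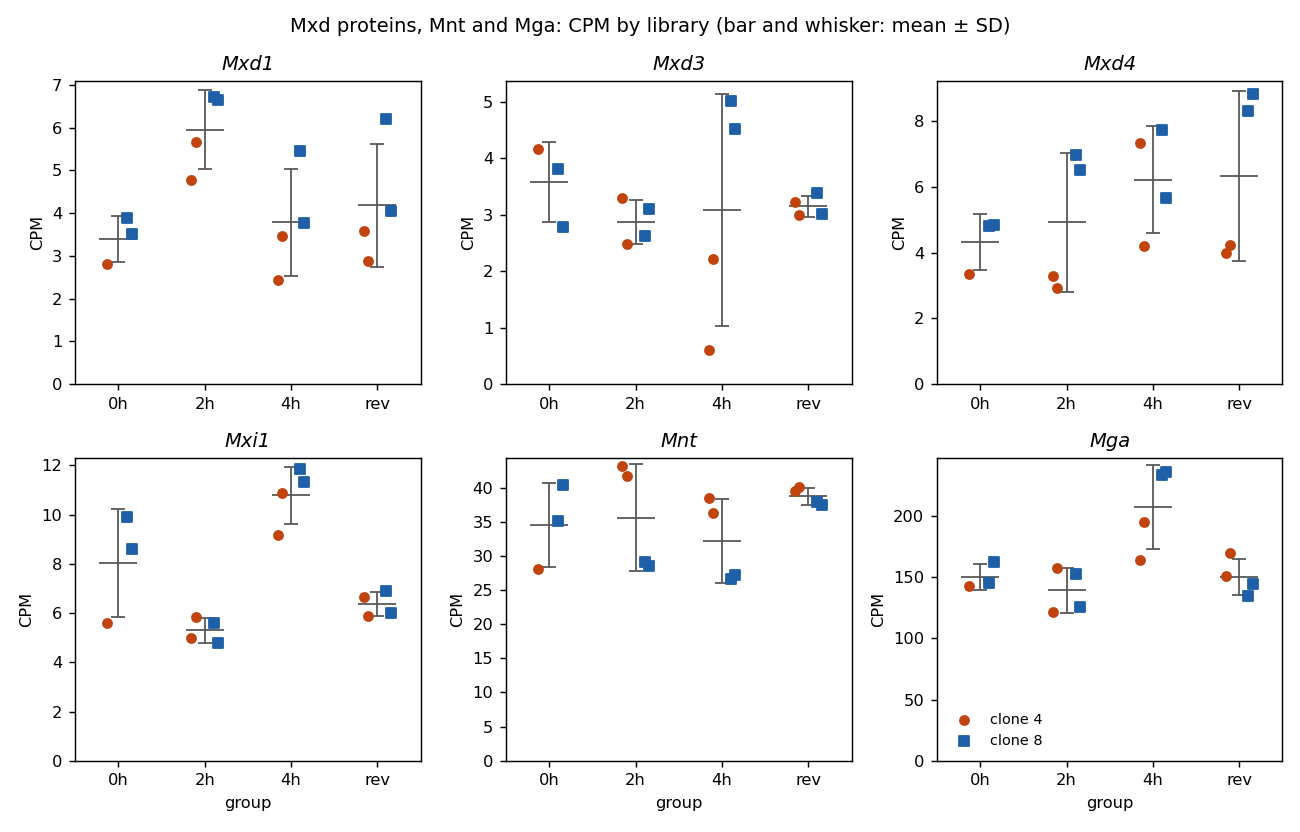
CPM of the 6 antagonists in each of the 15 libraries (vertical axes, from 0) by group, with circles for clone 4, squares for clone 8 and grey bars for the mean ± SD of a group (n = 3 at 0h, 4 elsewhere). Mxd1 is highest at 2h (4.77 to 6.72 CPM) and Mxi1 and Mga at 4h, while the groups of Mnt overlap.

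Counted over the network, 2 of 10 members were called in 2h over 0h (Myc and Mxd1, both higher), where 6.45% of all genes tested were called (3.98% higher and 2.46% lower). In 4h over 0h 7 members were called, 6 of them higher (Myc, Mycn, Max, Mxd4, Mxi1 and Mga, of which Mxd4, Mxi1 and Mga turned lower under scaling by total count) and 1 lower (Mycl), where 39.4% of all genes were called (20.5% higher and 18.9% lower). In 4h over 2h 5 were called, with Mycn (lower under scaling by total count), Max, Mxi1 and Mga higher and Mxd1 lower, against 38.9% of all genes (19.7% higher and 19.2% lower). In rev over 4h 4 were lower (Mycn, Max, Mxi1 and Mga) and 0 higher, against 30.8% of all genes (15.1% higher and 15.6% lower). In rev over 0h 1 was called (Myc, higher), against 11.2% of all genes (6.49% higher and 4.66% lower). The comparisons share samples (4h over 2h and rev over 4h share the 4h libraries, for example), so a rise in one and a fall in the other are not separate evidence. The median log2 change of the 10 members was −0.06 in 2h over 0h, 0.48 in 4h over 0h, 0.27 in 4h over 2h, −0.25 in rev over 4h and 0.04 in rev over 0h, and that of all genes tested lay between −0.01 and 0.03.

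**Figure D3:**
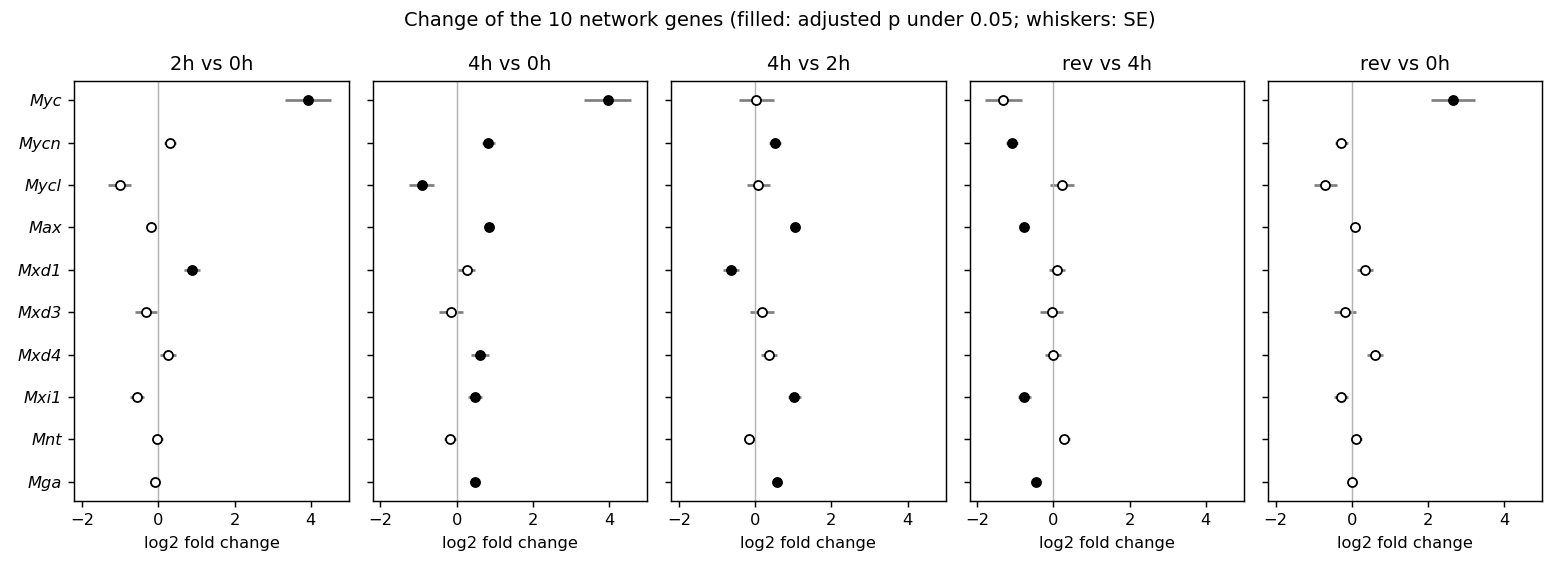
Log2 fold change of the 10 genes (horizontal axes, whiskers show the SE of the model) in the 5 group comparisons, with filled points where the adjusted p was under 0.05. Myc stands at 3.93 and 3.96 in the first pair of panels; the 4h over 0h points of Mxd4, Mxi1 and Mga (0.61, 0.48 and 0.47) and the 4h over 2h point of Mycn (0.51) turn negative under scaling by total count.

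The clones differed in the courses of Myc and Mycn. Within clone 4, 2h over 0h held 3 called members, against 4.33% of all genes: Myc rose by 5.15 (SE 0.28, adjusted p = 1.96e-10), Mnt by 0.59 (adjusted p = 0.0314) and Mycl fell by 1.43 (adjusted p = 0.00527). Within clone 8 there were also 3, against 2.42% of all genes: Myc rose by 3.54 (SE 0.19, adjusted p = 2.16e-10) and Mycn by 0.82 (adjusted p = 0.000305), and Mxi1 fell by 0.84 (adjusted p = 0.0338). The clone difference in this step, tested itself, was called for 3 members, against 0.23% of all genes. It was −1.61 for Myc (SE 0.30, adjusted p = 0.0208), 1.21 for Mycn (SE 0.19, adjusted p = 0.00716) and −0.98 for Mnt (SE 0.20, adjusted p = 0.0374), each as clone 8 minus clone 4. These 3 rest on the single clone 4 library at 0h, which cannot be left out. Without the 0h library clone8_2 none of them was called (Myc −1.44, adjusted p = 0.202; Mycn 1.26, adjusted p = 0.0647; Mnt −0.86, adjusted p = 0.423). Without the 2h library clone4_1 Myc was not called either (−1.53, adjusted p = 0.0885), and Mnt was lost in all 6 such fits. Within single clones, the calls of Mnt in clone 4 and of Mxi1 in clone 8 were lost in every such fit (adjusted p from 0.0904 to 0.0995 and from 0.104 to 0.309), and that of Mycl in clone 4 without the 2h library clone4_2 (−1.24, adjusted p = 0.0747).

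From 2h to 4h Myc moved in opposite directions. In clone 4 it rose further, by 0.70 (SE 0.17, adjusted p = 0.00448), and in clone 8 it fell by 1.08 (SE 0.18, adjusted p = 1.57e-04). The difference of these steps was −1.79 (SE 0.24, adjusted p = 2.33e-04), the only member called among 3.14% of all genes, and it was called without any single library and under each of 3 other settings, where scaling by total count gave −2.36 (adjusted p = 0.00366). Mycn rose in both clones, by 0.61 in clone 4 (adjusted p = 0.00114) and by 0.44 in clone 8 (adjusted p = 0.0100; −0.37 under scaling by total count), and the difference was −0.17 (SE 0.17, adjusted p = 0.707). Max rose by 0.96 in clone 4 and 1.13 in clone 8, with adjusted p of 1.50e-04 and 2.11e-05. Mxi1 rose by 0.90 and 1.16, with adjusted p of 0.00584 and 5.46e-04. Mxd4 rose in clone 4 by 0.81 (adjusted p = 0.0415), a call lost without the 2h library clone4_1, clone4_2 or the 4h library clone4_1 (0.90, 0.71 and 0.44, adjusted p from 0.0834 to 0.325). Without the 4h library clone4_1, the Mycl value in clone 4 was −1.02. Without clone4_2, the Mxd3 value was −2.21 in clone 4 and 2.95 in the clone difference. For clone 4 at 4h these Mxd3 values rest on 1 read, that of clone4_1. Mga was higher in clone 8 by 0.76 (adjusted p = 3.55e-04; −0.02 under scaling by total count), and in clone 4 the value was 0.36 (adjusted p = 0.0508; 0.54 and 0.0133 without the 2h library clone4_2, 0.48 and 0.0335 without the 4h library clone4_1). With these, 5 members were called in each clone, against 27.3% of all genes in clone 4 and 26.9% in clone 8. Of the other single-clone calls in this step, Mxi1 in clone 4 was lost without the 2h library clone4_1 (0.78, adjusted p = 0.0572) or the 4h library clone4_2 (0.75, adjusted p = 0.0819), and Mycn in clone 8 without the 2h library clone8_1 (0.38, adjusted p = 0.0690) or the 4h library clone8_2 (0.38, adjusted p = 0.0957).

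After MEK inhibition Myc fell by 2.10 in clone 4 (SE 0.18, adjusted p = 1.85e-07), while in clone 8, where it was already low at 4h, the value was −0.09 (SE 0.18, adjusted p = 0.757). The difference of 2.01 (SE 0.25, adjusted p = 6.91e-05) was again the only member called, among 2.8% of all genes, and stood without any single library; under scaling by total count it was 1.93 (adjusted p = 0.108). Mycn fell by 1.03 in clone 4 and 1.16 in clone 8 (adjusted p of 1.62e-05 and 1.12e-06). Max fell by 0.73 and 0.82 (adjusted p of 0.00279 and 5.83e-04) and Mxi1 by 0.69 and 0.84 (adjusted p of 0.0386 and 0.00810). Mga fell by 0.75 in clone 8 (adjusted p = 4.60e-04) and Mnt rose there by 0.49 (adjusted p = 0.00826). In all, 4 members were called in clone 4, against 17% of all genes, and 5 in clone 8, against 23.4%. The Mxi1 call in clone 4 was lost without the 4h library clone4_2 or either rev library (adjusted p from 0.0923 to 0.229), the one in clone 8 without the rev library clone8_2 (−0.75, adjusted p = 0.0785), and the Mnt call without clone8_1 at 4h or in rev (0.47 in both, adjusted p of 0.0526 and 0.0595). Without the 4h library clone4_2 the Mxd3 value in clone 4 was 2.32, which at 4h rests on 1 read in clone4_1. Under scaling by total count, the calls of steps within a clone that stood were those of Myc and Mycl in clone 4 and of Myc in clone 8 for 2h over 0h, of Myc in clone 8 for 4h over 2h and of Myc in clone 4 for rev over 4h. Mxd1 was then called as well in clone 8 for 4h over 2h (−1.32, adjusted p = 0.0197). Of the clone differences of a step, that of Myc in 4h over 2h stood.

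Averaged over the groups, 4 members were higher in clone 8 than in clone 4, against 18.5% of all genes called: Mycn by 0.87 (SE 0.12, adjusted p = 3.00e-05), Mycl by 0.83 (SE 0.22, adjusted p = 0.0146), Mxd4 by 0.81 (SE 0.15, adjusted p = 5.02e-04) and Mxd1 by 0.50 (SE 0.15, adjusted p = 0.0192). The Mxd1 call was lost without clone4_2 (0.44, adjusted p = 0.0537) or clone8_1 (0.40, adjusted p = 0.0638) of rev. Without the clone 4 library at 0h, Myc (−1.30, adjusted p = 0.0177) and Mnt (−0.37, adjusted p = 0.00480) were called as well, from −1.01 (adjusted p = 0.0837) and −0.23 (adjusted p = 0.121). Under scaling by total count Mxd1 was lost (0.50, adjusted p = 0.305) and Myc was called as lower in clone 8 (adjusted p = 2.37e-04), while Mycn, Mycl and Mxd4 stood. At 4h alone 5 members differed, against 14.3% of all genes. Myc was lower in clone 8 by 2.61 (log2 −2.61, SE 0.18, adjusted p = 1.05e-08), and Mycn was higher by 1.06 (SE 0.12, adjusted p = 4.25e-06). Mycl was higher by 1.55 (SE 0.31, adjusted p = 0.00143), Mxd3 by 1.51 (SE 0.42, adjusted p = 0.0172), and Mnt was lower (−0.47, SE 0.13, adjusted p = 0.0165). Of these, Mycl was lost without clone4_2 (1.02, adjusted p = 0.0787), Mxd3 without clone4_1 (1.10, adjusted p = 0.0928) or clone8_1 (1.44, adjusted p = 0.0849), and Mnt without clone4_1, clone8_1 or clone8_2 (adjusted p from 0.0601 to 0.0819), while Mga was called without clone4_2 (0.52, adjusted p = 0.0430). Under scaling by total count Myc alone stood at 4h (−2.75, adjusted p = 1.23e-08), and the other 4 calls ended (adjusted p of 0.273 for Mycn, 0.103 for Mycl, 0.201 for Mxd3 and 0.649 for Mnt).

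The summed RNA of the activators was higher relative to that of the antagonists during induction. Per length, Myc, Mycn and Mycl together were at 17.6 ± 0.204 CPM per kb at 0h (SD, n = 3), 35.3 ± 3.17 at 2h, 45.9 ± 6.44 at 4h and 19.9 ± 3.73 in rev (n = 4 each). The 6 antagonists together were at 20.9 ± 2.05 CPM per kb at 0h and 20.2 ± 1.77 CPM per kb at 2h, and they were at 24.6 ± 2.13 CPM per kb at 4h and 21.8 ± 0.687 CPM per kb in rev. The ratio of the first sum to the second was 0.934 in clone 4 and 0.823 and 0.783 in clone 8 at 0h. It was 1.68, 1.41, 1.83 and 2.15 at 2h and 2.32, 2.15, 1.44 and 1.65 at 4h (clone 4, then clone 8). In rev it was 0.752 and 0.762 in clone 4 and 1.14 and 1.02 in clone 8. All libraries at 2h and 4h thus lay above all libraries at 0h and in rev. This is a description without a test, and RNA levels say nothing of protein amounts. Summed as CPM without length, or without Mga, the levels of the ratio shifted but 2h and 4h stayed above 0h and rev in their means (log2 −1.76, −0.85, −0.90 and −1.75 with CPM, and 0.67, 1.67, 2.04 and 0.72 without Mga, for 0h, 2h, 4h and rev).

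The make-up of the activator sum differed between the clones more than its size did. Myc was 3.40% of it in clone 4 and 5.34% and 6.49% in clone 8 at 0h. At 2h it was 65.0% and 65.2% in clone 4 and 33.4% and 31.0% in clone 8. At 4h it was 66.2% and 69.8% in clone 4, and 12.0% and 16.2% in clone 8, where Mycn made up 80.5% and 77.7%. In rev it was 45.8% and 50.8% in clone 4 and 24.1% and 22.5% in clone 8. Mnt and Mga made up 79.1% to 87.1% of the antagonist sum in the 15 libraries. Max, at 4.67 to 6.91 CPM per kb outside 4h and 9.51 to 11.9 CPM per kb at 4h, lay below the activator sum in each library.

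**Figure D4:**
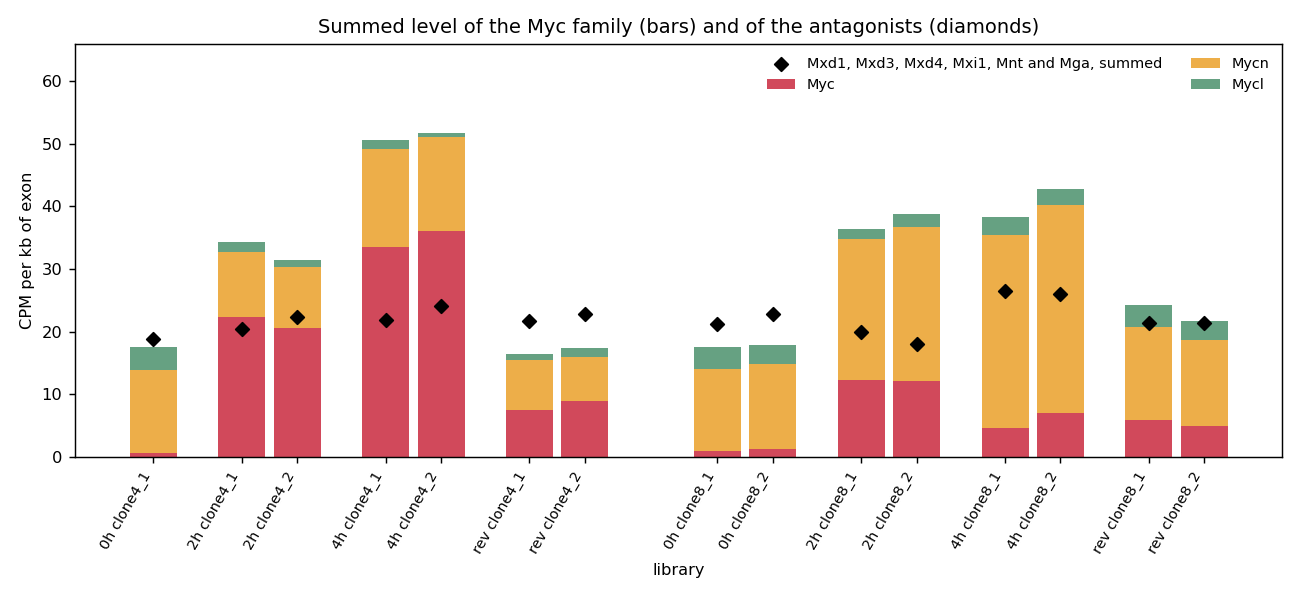
Summed CPM per kb of exon (vertical axis, from 0) of Myc, Mycn and Mycl (stacked bars) and of the 6 antagonists (diamonds) in each of the 15 libraries, clone 4 on the left and clone 8 on the right. The bars exceed the diamonds in every library at 2h and 4h and in both clone 8 libraries of rev. At 2h and 4h Myc makes up most of the bars in clone 4 and Mycn most of them in clone 8. At 0h Mycn makes up most of the bars in both clones (75.5% in clone 4, 75.0% and 76.6% in clone 8).

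The proteins that work with the network were looked at through lists of genes. Scaling by total count ended all 9 list calls named for 2h over 0h in the paragraphs below. It also ended those of Rybp, Rnf2, Tex11 and Gadd45a and reversed those of Rbbp7 and Mlx in 4h over 0h, and it ended those of Sin3a, Rybp, Dazl and Gadd45a in rev over 4h. Their counts stand beside shares over all genes of 3.98% higher and 2.46% lower in 2h over 0h, 20.5% higher and 18.9% lower in 4h over 0h, and 15.1% higher and 15.6% lower in rev over 4h, and in lists this short a count near those shares says nothing about the list. Of 13 cofactors of the activators, 1 rose and 0 fell in 2h over 0h (6.45% of all genes called), and 0 rose and 4 fell in 4h over 0h (39.4% of all genes called), with a list median of −0.02 (0.03 over all genes). The riser was Ccnt1 (0.46, adjusted p = 0.00822), the cyclin of the elongation factor P-TEFb; without the clone 4 library at 0h it was 0.37 (adjusted p = 0.126). At 4h Ruvbl2 (−0.70, adjusted p = 6.55e-05), Ruvbl1 (−0.45, adjusted p = 0.0196) and Actl6a (−0.40, adjusted p = 0.0111), subunits of chromatin remodellers, fell, and they rose again in rev over 4h by 0.33, 0.45 and 0.31. Without the clone 4 library at 0h, Ruvbl1 (−0.37, adjusted p = 0.129, and also 0.0573 without the 4h library clone8_1) and Actl6a (−0.23, adjusted p = 0.189) were not called in 4h over 0h, and the rises of all 3 in rev over 4h were each lost without at least 1 library, those of Actl6a in 6 of 8 such fits.

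Of 8 genes of the SIN3 corepressor, 1 rose and 1 fell in 2h over 0h and 2 rose and 4 fell in 4h over 0h (list median −0.33), where 39.4% of all genes were called. Sin3a, its scaffold, went from 76.0 to 81.2 CPM at 0h to 54.8 to 61.7 CPM at 2h (−0.40, adjusted p = 0.00597), 86.9 to 107 CPM at 4h and 58.0 to 68.3 CPM in rev (−0.61 in rev over 4h, adjusted p = 6.92e-06). Without the clone 4 library at 0h the 2h value was −0.37 (adjusted p = 0.0650). Rbbp4, a histone-binding subunit, fell by 0.59 in 4h over 0h (adjusted p = 1.28e-04), while Rbbp7 was higher by 0.43 (adjusted p = 4.29e-04), which turned to −0.28 under scaling by total count. Rbbp7 was also the riser of 2h over 0h (0.38, adjusted p = 0.00751), a call lost without the clone 4 library at 0h (0.30). Suds3 fell in 4h over 0h by 0.41 (adjusted p = 0.0131; 0.119 without the same library). In rev over 4h 2 of the 8 rose and 1 fell, with Rbbp4 at 0.44 (adjusted p = 0.00155) and the deacetylase gene Hdac2 at 0.38 (adjusted p = 0.0107).

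Of 12 genes that set the stability of MYC proteins, 1 rose in 2h over 0h and 0 fell, and 1 rose and 3 fell in 4h over 0h (list median 0.12), where 39.4% of all genes were called. The riser in both was Pim1, a kinase that stabilises MYC. It was at 7.72 to 10.6 CPM at 0h, 15.9 to 30.3 CPM at 2h, 27.5 to 50.1 CPM at 4h and 9.55 to 14.1 CPM in rev. The 0h and 2h groups did not overlap, nor did 4h and rev. Pim1 rose by 1.13 in 2h over 0h (SE 0.19, adjusted p = 5.08e-04) and by 1.83 in 4h over 0h (SE 0.19, adjusted p = 3.20e-07), and it fell by 1.58 in rev over 4h (SE 0.17, adjusted p = 6.12e-07). All 3 calls stood without any single library. Among those that fell in 4h over 0h were Stub1 (−0.63, adjusted p = 0.0219) and Aurka (−0.45, adjusted p = 0.00656), which code for a ubiquitin ligase and a mitotic kinase. In rev over 4h 1 rose (Stub1, 0.55, adjusted p = 0.0412) and 1 fell. The Stub1 calls were kept in 5 of 7 and 4 of 8 fits that leave out a library, and the first was lost without 0h clone4_1 (−0.39, adjusted p = 0.222) or 4h clone4_2 (−0.46, adjusted p = 0.0903). The Aurka call stood in all 7.

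MGA acts with MAX in a Polycomb complex, of which 9 further genes were listed. In 2h over 0h 0 of the 9 were called by edgeR's test, with 1 at an unadjusted p under 0.05, and 0 by DESeq2. In 4h over 0h 2 rose and 5 fell (list median −0.27), against 20.5% and 18.9% of all genes. Rybp (0.72, adjusted p = 4.80e-04) and Rnf2 (0.71, adjusted p = 7.60e-04), which also serve in other Polycomb complexes, rose, with values of 0.00 for both under scaling by total count. Ring1 (0.27, adjusted p = 0.411) and Yaf2 (−0.02, adjusted p = 0.957), the paralogs of these genes, were not called. E2f6 (−0.56, adjusted p = 0.00700), a DNA-binding subunit, fell. In rev over 4h 4 rose and 1 fell, among them E2f6 (0.51, adjusted p = 0.0108, lost without the 4h library clone8_2 or the rev library clone8_1) Cbx3 (0.33, adjusted p = 0.0185, lost without 4h clone4_2 or rev clone8_1) and Rybp (−0.60, adjusted p = 0.00167).

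Of 16 germline genes, the class that this complex is known to silence, 12 passed the filter on low counts, while Tex101, Tdrd9, Asz1 and Stra8 did not. In 2h over 0h 0 of the 12 were called by edgeR's test, with 3 at an unadjusted p under 0.05, and 0 by DESeq2. In 4h over 0h 3 rose and 2 fell (list median 0.20), against 20.5% and 18.9% of all genes, so the share called was near that of all genes. Sohlh2, a germ cell transcription factor, was at 2.21 to 3.27 CPM at 0h, 2.01 to 2.27 CPM at 2h, 9.16 to 44.6 CPM at 4h and 1.75 to 2.17 CPM in rev, rising by 3.34 in 4h over 0h (SE 0.40, adjusted p = 8.44e-06). Dazl, a germ cell RNA-binding protein, was at 2.16 to 3.21 CPM at 0h, 2.84 to 5.48 CPM at 2h, 10.5 to 16.5 CPM at 4h and 4.67 to 8.67 CPM in rev, rising by 2.15 (SE 0.28, adjusted p = 3.32e-06). Tex11 rose by 1.36 (adjusted p = 0.00100), while Sycp3 (−0.94) and Tdrkh (−0.91) fell. In rev over 4h 1 rose and 4 fell, with Sohlh2 at −3.62 (adjusted p = 2.75e-06) and Dazl at −1.12 (adjusted p = 0.00113). The naive markers moved with these genes at 4h, as given above, and their part was not tested.

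Of 24 genes that MYC is known to activate, 1 rose and 2 fell in 2h over 0h (list median −0.07), where 3.98% of all genes rose and 2.46% fell. In 4h over 0h 2 rose and 9 fell (list median −0.19), against 20.5% and 18.9% of all genes, and in rev over 4h 6 rose and 1 fell (list median 0.10), against 15.1% and 15.6%. The median over all genes lay between 0.01 and 0.03 in these comparisons. The ribosome assembly factor Mrto4 was at 39.4 to 57.2 CPM at 0h and 16.6 to 22.8 CPM at 4h, a fall of 1.22 (SE 0.16, adjusted p = 5.61e-06). The lactate dehydrogenase gene Ldha was at 331 to 407 CPM at 0h and 155 to 185 CPM at 4h, a fall of 1.16 (SE 0.10, adjusted p = 1.82e-08). Both rose in rev over 4h, by 1.07 and 0.74, as did the nucleotide kinase gene Nme1, by 0.75 (adjusted p = 0.00134). Tfrc, the transferrin receptor, rose in 2h over 0h by 0.42 (adjusted p = 0.0176), while Tert fell by 0.69 (adjusted p = 0.0176) and Polr1b by 0.38 (adjusted p = 0.0229). Without the clone 4 library at 0h none of these 3 was called (adjusted p of 0.235, 0.161 and 0.0983). Ccnd2, a cyclin of the D type, rose in 4h over 0h by 1.69 (SE 0.60, adjusted p = 0.0444), a call kept in 2 of 7 fits that leave out a library.

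Of 7 genes that MYC is known to repress, 1 rose and 1 fell both in 2h over 0h and in 4h over 0h, where 6.45% and 39.4% of all genes were called. Gadd45a, a stress response gene, rose by 1.00 in 2h over 0h (adjusted p = 0.00407; 0.91 and 0.0547 without the clone 4 library at 0h) and by 0.97 in 4h over 0h (adjusted p = 0.00141), and fell by 0.85 in rev over 4h (adjusted p = 0.00320). Cdkn1a, the cell cycle inhibitor p21, fell by 0.62 in 4h over 0h (adjusted p = 0.0149; adjusted p of 0.0520 without the 0h library clone8_1 and 0.0503 without the 4h library clone8_1). Gas1 fell by 0.92 in 2h over 0h (adjusted p = 0.0433), kept in 2 of 7 fits that leave out a library. In the parallel branch of the network built on MLX, Mlxipl, which codes for the glucose sensor ChREBP, fell by 1.59 in 4h over 0h (adjusted p = 0.00153), with 0 to 2.26 CPM at 4h against 3.89 to 4.72 CPM at 0h. Mlxipl had at most 8 counts in a 4h library, and 3 counts are worth 0.683 to 1.83 CPM in those libraries. It rose by 1.16 in rev over 4h (adjusted p = 0.0177), lost without clone8_1 of 4h (0.88, adjusted p = 0.0967) or clone8_2 of rev (1.00, adjusted p = 0.0620). Mlx was higher by 0.48 (adjusted p = 0.0256; −0.26 under scaling by total count), a call kept in 4 of 7 fits that leave out a library.

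**Figure D5:**
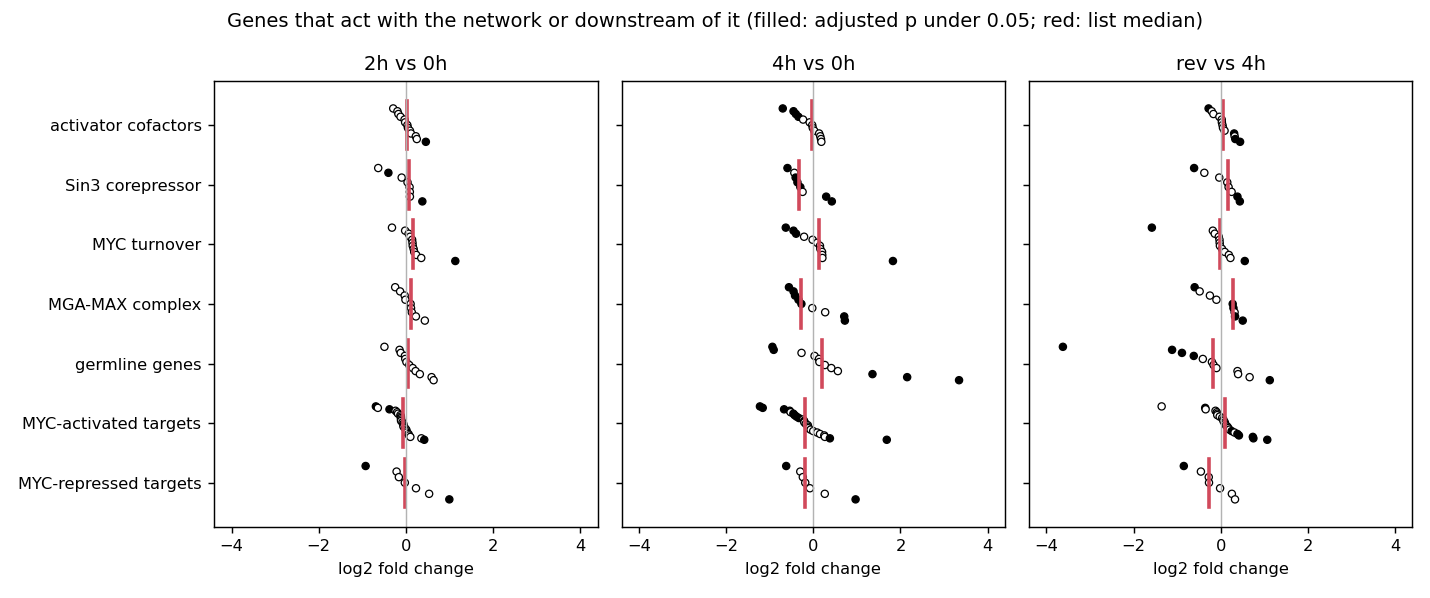
Log2 fold change (horizontal axes) of the genes of 7 lists in 2h over 0h, 4h over 0h and rev over 4h, with filled points where the adjusted p was under 0.05 and a red line at each list's median; vertical spread within a list only separates the points. Medians stay between −0.33 and 0.28, and Sohlh2 (3.34), Dazl (2.15), Pim1 (1.83) and Ccnd2 (1.69) lie farthest to the right in 4h over 0h.

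Genes with the most similar course were searched among 8344 genes with a mean of at least 5 CPM, by the root mean square difference of centred log2 levels over the 8 means of each clone in each group. For Myc these were Plaur (0.63), Phlda1 (0.66) and Dusp6 (0.71), where the spread of Myc itself over the 8 means was 1.84. For Mycn they were Casd1 (0.22), Sh3gl2 (0.23) and Irf1 (0.25), beside a spread of 0.61. Max was closest to Wdcp (0.096), 5830417I10Rik (0.11) and Mindy1 (0.11), beside 0.40. Mxd1 was closest to Dnajb9 (0.16), Btg1 (0.20) and Golt1b (0.20), also beside 0.40. Mxi1 was closest to Fryl (0.12), Etl4 (0.13) and Cacna1a (0.14), beside 0.41. Mga was closest to Qser1 (0.056), Scpep1 (0.061) and Proser1 (0.069), beside 0.25. These are descriptions of likeness over shared libraries, with no test.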

How the data were processed

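The count table as deposited holds raw read counts per gene, whole numbers with no normalization by the authors. Per the submitters' processing notes, bcl2fastq 2.19.1, STAR 2.5.3a and mm10 were used; the counting tool, annotation and strand setting are not given in the sources used here. Per the labels' protocols, 1 µg of RNA per sample was depleted of ribosomal RNA. Of 52636 identifiers, 52489 were in GENCODE M21, which gave names, positions and exon lengths. Total counts were 1552022 to 13004556, and 3 counts correspond to 0.161 to 1.83 CPM; reads carry no molecular identifiers, so such floors cover counting error only. Duplicate libraries were not found, since the 2 libraries of a clone in a group differed with a chi-square of 5.49 to 199 per degree of freedom.

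Counts were tested in R 4.3.3 with edgeR 4.0.16 (limma 3.58.1) on 13451 genes kept by filterByExpr (minimum count 10, minimum total 15), TMM scaling, group and clone as terms over 15 libraries; steps within a clone and clone differences came from a fit of all clone by group means. DESeq2 1.42.0 was an alternative. The members and lists were chosen with earlier results of these data known. Named genes are the members, up to 3 called genes per list with the largest change in 2h over 0h, 4h over 0h and rev over 4h (mean of at least 1 CPM), and the 3 nearest courses of each member called in at least 2 of 5 comparisons; Ring1, Yaf2, Sycp3 and Tdrkh were named after their values were seen. Alternatives covered scaling, filter, depth, tool, samples and pairing. The contrast of the clones at 4h, the other scalings within clones and edgeR's earlier dispersion were added after seeing the data.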

Additional observations from a re-analysis of the deposited data

Results flagged for a closer look

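In 5 cases the change of a member differed between the clones by a direct test of that difference (clone 8 minus clone 4, edgeR's quasi-likelihood test). In 2h over 0h the difference was −1.61 for Myc (adjusted p = 0.0208), 1.21 for Mycn (adjusted p = 0.00716) and −0.98 for Mnt (adjusted p = 0.0374), all resting on 1 clone 4 library at 0h. In 4h over 2h it was −1.79 for Myc (adjusted p = 2.33e-04), and in rev over 4h it was 2.01 for Myc (adjusted p = 6.91e-05). None of 33 groups of 4 libraries (members and the activator balance) held a lone outlying library, judged by its gap to the next value over the range. Where the clones split into pairs this check can flag no library. The 0h group (n = 3) was not checked.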

How the results depend on the processing

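Counts of called members and genes depended on scaling, filter and model. With scaling by total count, called members numbered 4 in 4h over 0h, 2 in 4h over 2h, 2 in rev over 4h, 2 in rev over 0h and 0 in the clone differences of 2h over 0h and rev over 4h, and called genes 267 in 2h over 0h, 770 in rev over 0h, and 2, 147 and 45 in the clone differences of 2h over 0h, 4h over 2h and rev over 4h. That scaling reversed Mxd4 (−0.15), Mxi1 (−0.28), Mga (−0.24), Mlx (−0.26) and Rbbp7 (−0.28) in 4h over 0h and Mycn (−0.047) in 4h over 2h, and within clone 8 Mycn (−0.37) and Mga (−0.021) in 4h over 2h. Of 80 member values within or between clones, it left 53 on the same side of the threshold, and size factors of DESeq2 left all 80. Leaving out mitochondrial genes and the 20 with the most counts, 4 members and 1499 genes were called in 2h over 0h and 2 and 2296 in rev over 0h. With no filter beyond 1 count, 1305 genes were called in 2h over 0h, 2 members in rev over 0h, and in the clone differences 56 genes (2h over 0h) and 2 members (rev over 4h). With no clone term, members numbered 1 in 2h over 0h, 3 in 4h over 0h and 3 in 4h over 2h, and genes 427 in 2h over 0h and 793 in rev over 0h. With the earlier dispersion of edgeR, 4 members and 1327 genes were called in 2h over 0h and 2 members in rev over 0h. Thinning to the smallest library left 8 members and 8843 genes to test, with 1, 3 and 0 members called in 2h over 0h, 4h over 2h and rev over 0h, Mxd4 at −0.085 in 4h over 0h, and 285, 2528, 2447, 1854 and 468 genes in 2h over 0h, 4h over 0h, 4h over 2h, rev over 4h and rev over 0h. Fitting only the groups compared gave 4 members in 4h over 0h and, in rev over 0h, 2 members and 2934 genes. DESeq2 called 4 members in 2h over 0h and 2 in rev over 0h.

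Leaving out each library in turn gave 2 to 3 called members in 2h over 0h, 4 to 6 in 4h over 0h, 3 to 5 in 4h over 2h, 4 to 5 in rev over 4h, 0 to 1 in rev over 0h, 3 to 6 in clone 8 vs clone 4, 3 to 5 in that contrast at 4h, 1 to 2 in 2h over 0h in clone 4 and 2 in each fit in clone 8, 3 to 6 and 4 to 5 in 4h over 2h in clones 4 and 8, 3 to 4 and 4 to 5 in rev over 4h in them, and 0 to 2, 1 to 2 and 1 in the clone differences of 2h over 0h, 4h over 2h and rev over 4h. Called genes ranged from 308 to 1077 in 2h over 0h, 3847 to 5186 in 4h over 0h, 4502 to 4981 in 4h over 2h, 3285 to 3972 in rev over 4h and 511 to 1299 in rev over 0h, and from 2 to 24, 278 to 403 and 195 to 354 in the 3 clone differences. In 2h over 0h the library whose absence gave the fewest called genes was the clone 4 library at 0h (308), and in rev over 0h it was the same library (511). The activator balance in log2 was −0.24, 0.80, 0.89 and −0.15 at 0h, 2h, 4h and rev per kb, −1.76, −0.85, −0.90 and −1.75 with CPM, and 0.67, 1.67, 2.04 and 0.72 without Mga.

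Of 9 correlations between same-numbered libraries of a clone (−0.194 to 0.261), 1 was over 0.1. Each was taken from deviations within a pair of libraries, which cannot settle whether the replicate numbers mark paired cultures. The main fit left these numbers out. With the replicate block, members called were 2, 5, 5, 4 and 1 and genes called 653, 4902, 5182, 4130 and 1104 in 2h over 0h, 4h over 0h, 4h over 2h, rev over 4h and rev over 0h. Apart from the settings given for each, the causes of these shifts were not tested. Depth limits the low members most: in the smallest 4h library 3 counts are worth 1.83 CPM, against mean levels of 3.09 CPM for Mxd3 and 3.78 CPM for Mxd1 at 4h.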
